A study of Danio rerio with 14 samples.

Results

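Cytochrome P450 families 1 to 4 of the zebrafish intestine are described here. The members are all genes of the count table whose zebrafish symbol begins with cyp1, cyp2, cyp3 or cyp4 followed by a letter and that had at least 1 count. This gave 53 of 32520 genes: 4 of family 1, 40 of family 2, 5 of family 3 and 4 of family 4. The lowest gene inside the rule, cyp2k31, had 9 counts over all libraries, and the gene just outside it, CYP1B1, had 0. Transcripts of the gut were sequenced after poly-A selection in 14 libraries. The 3 transgenic M and 3 transgenic H libraries came from fish carrying Tg(Xla.Eef1a1:Cau.Asip1)iim04, a construct whose name stands for the frog Eef1a1 promoter, active in most tissues, ahead of goldfish Asip1, an agouti signalling protein. The 4 wild-type M and 4 wild-type H libraries came from Tubingen fish. The labels do not explain the letters M and H.

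The transgenic label names 1 allele of the transgene and no strain, so its effect and a difference of strain cannot be told apart. No gene of the table is the transgene, so no library could be checked for it. Nothing in the labels says that each library is its own fish. The p-values thus set a difference only against the spread of these samples, and that spread may be technical. Libraries are named below by genotype, letter and the number in their title, such as wild-type H 6. Levels are given in CPM, a gene's counts relative to its library's total after scaling by TMM, a factor that corrects for a few genes taking many reads. FPKM, deposited by the authors, also divides by gene length and is used wherever genes are compared with each other.

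Cytochromes P450 are heme enzymes of the endoplasmic reticulum that insert an oxygen atom into their substrate with electrons passed on by cytochrome P450 reductase. Families 1 to 3 oxidise drugs, pollutants, plant compounds, fatty acids and steroids, and family 4 mostly oxidises the end carbon of fatty acids. Enterocytes, the absorptive cells of the gut, carry many of them and meet foreign compounds from food first. Several family 1 genes are induced through the aryl hydrocarbon receptor, and many family 2 and 3 genes through nuclear receptors. Family 2 has expanded in fish into subfamilies, such as cyp2aa, cyp2k, cyp2p and cyp2x, that lie in arrays of similar genes.

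Total counts ranged from 9847910 to 14091791 per library. Wild-type H 6 and wild-type H 7 stood apart from the rest. The 20 enterocyte markers took 0.0281% of the counts in wild-type H 6 and 0.371% in wild-type H 7, against 1.04 to 2.75% in the other 12 libraries. The 16 ovary and oocyte markers took 2.12%, 0.384% and 0.0962% in wild-type H 6, 7 and 8, 0.0335% in transgenic H 13 and under 0.001% in the other 10 libraries. The 7 vitellogenin genes, the liver-made precursors of egg yolk, took 18.2%, 7.95% and 21.0% in transgenic H 13, 14 and 16 and 6.18% in wild-type H 8, and at most 0.0020% elsewhere. The 17 liver markers took 0.0520 to 3.42% and the 15 exocrine pancreas markers 0.114 to 6.56%. The part of these other tissues in the results was not tested. In whole intestine, fewer cells of a type and less RNA per cell cannot be told apart.

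The members together took 0.260 to 0.573% of the counts in 12 libraries, but 0.0442% in wild-type H 6 and 0.125% in wild-type H 7. Those were the libraries with the fewest enterocyte marker counts. Of 48 members tested, 24 had their lowest level in wild-type H 6, and for 19 the lowest pair of libraries was wild-type H 6 and 7. The exceptions at the other end were cyp2x7 and cyp2p10, which were highest in wild-type H 6. Genotype results for the members that passed or were highest are therefore given with and without these 2 libraries.

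Levels differed widely between members. On the per-length FPKM scale, 24 members averaged at least 10 over the 14 libraries, 21 lay from 1 to under 10, and 8 lay under 1. The highest was cyp3a65, the main CYP3A gene of the zebrafish gut, with a mean of 631 FPKM. Behind it came the fish-specific cyp3c3 with 123, cyp2k19 with 106, cyp3c1 with 99.5, cyp2x8 with 69.5, CYP1A1 (zebrafish cyp1a) with 64.3, cyp2x9 with 59.0 and cyp2p6 with 56.3 FPKM. At the low end stood cyp2x6, cyp2k31, cyp2aa3, cyp2aa8 and cyp2aa9, with means of 0.0197 to 0.113 FPKM. Those 5 were too low to be tested, and cyp2aa8 and cyp2aa9 had most of their counts (59 and 20) in wild-type H 6.

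**Figure D1:**
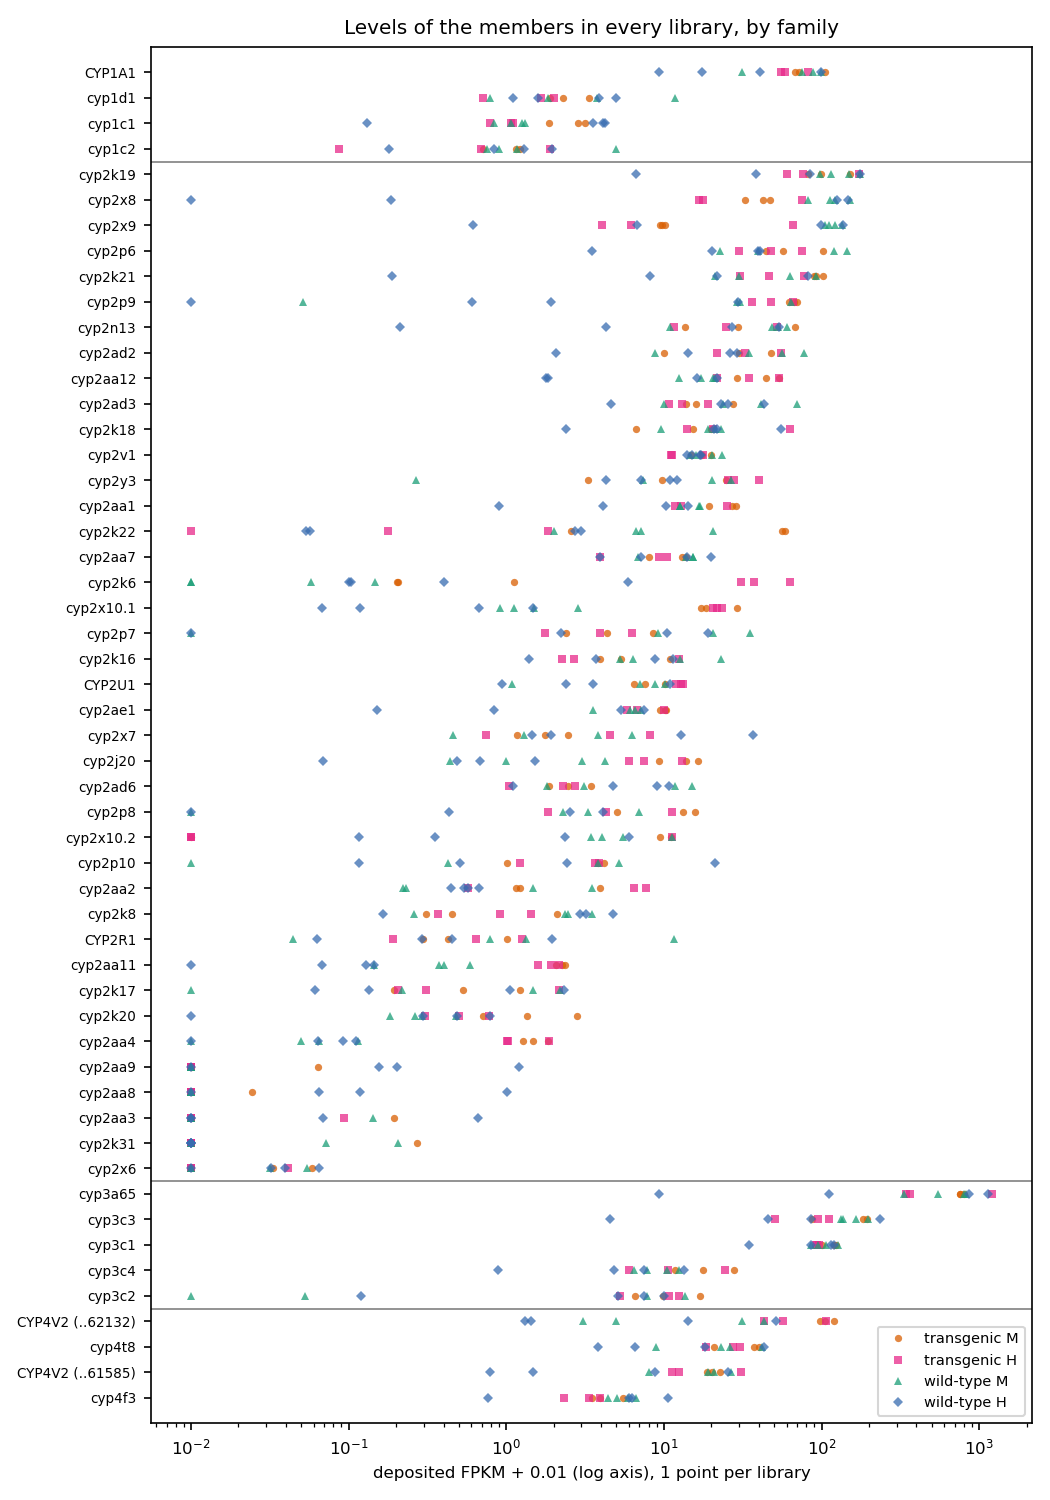
Deposited FPKM of the 53 members (rows, by family and then by mean) on a log axis, with 0.01 added and 1 point per library, coloured by genotype and letter. The row of cyp3a65 reaches farthest right, and its 2 lowest points, at 9.33 and 112 FPKM, are wild-type H 6 and 7; lone wild-type H points lie far left in many other rows.

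Family 3 took more of the summed member FPKM than family 2 in 10 of 14 libraries. In CPM, cyp3a65 stood at 1373, 1598 and 1540 in transgenic M libraries and at 815, 2992 and 879 in transgenic H libraries. It stood at 1643, 642, 1768 and 1021 CPM in wild-type M libraries and at 2526, 18.4, 144 and 1731 CPM in wild-type H libraries. The genotypes overlapped, and the lowest 2 libraries were wild-type H 6 and 7. The share of cyp3a65 in the summed member FPKM was 25.7 to 47.3% in 12 libraries, 4.59% in wild-type H 6 and 19.7% in wild-type H 7. It was the highest member in 13 libraries, and in wild-type H 6 it ranked 6 behind cyp2x7 at 37.0 FPKM.

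The family 3 genes cyp3c3 and cyp3c1 kept different spreads. The level of cyp3c3 was 390, 193 and 415 CPM in transgenic M, 290, 138 and 254 CPM in transgenic H, 366, 422, 334 and 273 CPM in wild-type M and 209, 9.90, 65.0 and 521 CPM in wild-type H libraries. For cyp3c1 it was 239, 222 and 277 CPM in transgenic M, 240, 262 and 247 CPM in transgenic H, 188, 201, 308 and 216 CPM in wild-type M and 74.7, 121 and 254 CPM in wild-type H 6, 7 and 8, with 290 CPM in wild-type H 5. Both overlapped between genotypes, and wild-type H 6 and 7 were the 2 lowest libraries for both. In the genotype comparison the 5 family 3 members had log2 fold changes of 0.05 to 1.2, and none passed. Without wild-type H 6 and 7 they ran from -0.37 for cyp3c3 to 0.94 for cyp3c2, with cyp3a65 at -0.0910 and cyp3c1 at 0.00, and again none passed.

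Of family 1, CYP1A1, which oxidises polycyclic aromatic compounds and is the classic target of the aryl hydrocarbon receptor, was by far the highest. It stood at 169, 272 and 180 CPM in transgenic M, 251, 177 and 182 CPM in transgenic H, 230, 78.4, 285 and 181 CPM in wild-type M and 284, 23.6, 28.9 and 106 CPM in wild-type H libraries. It averaged 205 ± 44.6 CPM in transgenic libraries (SD, n = 6) and 152 ± 108 CPM in wild-type libraries (SD, n = 8), and the groups overlapped. The log2 fold change was 0.49 (SE 0.50; adjusted p = 0.604), and 0.0945 without wild-type H 6 and 7 (SE 0.33; adjusted p = 0.910).

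The other family 1 genes were low in the gut. The level of cyp1d1 was 12.4, 19.9 and 11.6 CPM in transgenic M, 11.7, 5.21 and 14.3 CPM in transgenic H, 11, 4.45, 78.0 and 20.9 CPM in wild-type M and 32.5, 6.45, 6.09 and 23.3 CPM in wild-type H libraries. That of cyp1c2 was 1.40, 2.49 and 2.71 CPM in transgenic M, 4.84, 0.208 and 1.78 CPM in transgenic H, 2.53, 1.86, 11.9 and 1.49 CPM in wild-type M and 3.06, 0.363, 2.73 and 1.80 CPM in wild-type H libraries. Both were highest in wild-type M 3, overlapped between genotypes and did not pass, with log2 fold changes of -0.84 and -0.41, and -1.18 and -0.53 without wild-type H 6 and 7. For cyp1c1 it was 8.67, 5.67 and 8.88 CPM in transgenic M, 3.83, 2.92 and 3.98 CPM in transgenic H, 3.98, 2.41, 4.20 and 2.99 CPM in wild-type M and 14.2, 0.363, 6.91 and 12.5 CPM in wild-type H libraries. Every transgenic M library was above every wild-type M library for cyp1c1, whereas in H libraries 3 of the wild-type libraries were above all transgenic ones. Its log2 fold change was 1.18 within M (SE 0.71; adjusted p = 0.861) and -1.24 within H (SE 0.74; adjusted p = 0.300), and the difference between them was -2.43 (SE 1.03; adjusted p = 0.667). Leaving out wild-type H 6 and 7 kept only wild-type H 5 and 8 in their group, at 14.2 and 12.5 CPM. In that fit cyp1c1 passed in both letters, at 1.17 within M (adjusted p = 0.0272) and -1.86 within H (adjusted p = 0.00986). The difference between the letters did not pass there either, at -3.04 (adjusted p = 0.136).

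The question of the series is how transgenic fish differ from wild-type fish in the intestine, and 5 of the 48 tested members rose in transgenic libraries, averaged over the letters. They were cyp2x10.1, cyp2aa4, cyp2aa11, cyp2j20 and cyp2k6, all of family 2, and none fell. The 5 make 10.4% of the members tested, and higher calls made 2.19% of all 18619 genes tested, with lower calls at 2.02% and calls of either direction at 4.21%. The 5 were called by edgeR's quasi-likelihood test with Benjamini-Hochberg adjustment over all genes, at 0.05, and 13 members had an unadjusted p under that value. DESeq2 called those 5 and 3 more, CYP4V2 (ENSDARG00000062132), cyp2aa12 and cyp2aa2, all 8 higher, beside 8.46% of the genes it adjusted, with 3.82% higher and 4.64% lower.

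The largest change at a substantial level was that of cyp2x10.1 (ENSDARG00000068283), a gene of the fish cyp2x subfamily. It stood at 26.5, 31.3 and 50.6 CPM in transgenic M and at 46.7, 43.2 and 44.3 CPM in transgenic H libraries, against 1.88, 1.48, 2.80 and 4.48 CPM in wild-type M and 2.75, 0.182, 0.0634 and 1.12 CPM in wild-type H libraries. The lowest transgenic library was above the highest wild-type one, and the transgenic M and H libraries overlapped. The means were 40.4 ± 9.41 CPM in transgenic libraries (SD, n = 6) and 1.85 ± 1.48 CPM in wild-type libraries (SD, n = 8). The log2 fold change was 4.62 (SE 0.58; adjusted p = 0.000611), or 24.5-fold. It was 3.76 within M (adjusted p = 0.0418) and 5.48 within H (adjusted p = 0.00864), and the difference between the letters was 1.72 (SE 1.08; adjusted p = 0.668). Without wild-type H 6 and 7 it was 4.17 (SE 0.36; adjusted p = 6.96e-05). Its paralog cyp2x10.2 had 0 CPM in transgenic M 11, transgenic H 13 and transgenic H 16, the libraries in which cyp2x10.1 was highest. The paralog had 17.5, 16.4 and 24.2 CPM in the other transgenic libraries and 0.182 to 18.0 CPM in wild-type libraries. Whether counting split reads between these paralogs was not tested.

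Next to each other in the cyp2aa array, cyp2aa4 (ENSDARG00000098803) and cyp2aa11 (ENSDARG00000103456) were both low genes that rose. For cyp2aa4 the level was 2.43, 3.34 and 2.37 CPM in transgenic M and 4.02, 2.29 and 2.2 CPM in transgenic H libraries, and at most 0.186 CPM in each of the 8 wild-type libraries. Each wild-type library held 0 to 2 of its counts and all 8 together 9, against 196 counts in the 6 transgenic libraries, so the groups did not overlap. Its log2 fold change was 4.76 (SE 0.50; adjusted p = 0.000174), and the size rests on those few wild-type counts. For cyp2aa11 the level was 3.09, 3.88 and 3.81 CPM in transgenic M and 4.20, 3.23 and 3.81 CPM in transgenic H, against 0.651, 0.928, 0.247 and 0.560 CPM in wild-type M and 0.106, 0, 0.127 and 0.225 CPM in wild-type H libraries. The groups did not overlap, and the log2 fold change was 3.72 (SE 0.41; adjusted p = 0.000253).

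Both passed within each letter too. Within M the log2 fold change was 4.83 for cyp2aa4 (SE 0.71; adjusted p = 0.00629) and 2.57 for cyp2aa11 (SE 0.54; adjusted p = 0.0426). Within H it was 4.68 (SE 0.70; adjusted p = 0.00660) and 4.87 (SE 0.62; adjusted p = 0.00253). The difference between the letters did not pass for either gene. Without wild-type H 6 and 7 the genotype values were 4.87 for cyp2aa4 (SE 0.57; adjusted p = 0.000542) and 3.48 for cyp2aa11 (SE 0.35; adjusted p = 0.000214).

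The gene cyp2j20 (ENSDARG00000094057) belongs to the fish relatives of mammalian CYP2J, which make epoxides of arachidonic acid. It stood at 23.2, 14.6 and 21.9 CPM in transgenic M and 11.1, 25.2 and 14 CPM in transgenic H libraries, against 6.58, 1.48, 0.742 and 4.39 CPM in wild-type M and 1.16, 0.0908, 1.52 and 0.750 CPM in wild-type H libraries. The groups did not overlap. The log2 fold change was 3.40 (SE 0.53; adjusted p = 0.00272), or 10.6-fold, and 3.37 without wild-type H 6 and 7 (SE 0.53; adjusted p = 0.00366). It passed within H at 4.22 (SE 0.78; adjusted p = 0.0214) and had 2.59 within M (SE 0.73; adjusted p = 0.159), and the difference between the letters was 1.64 (SE 1.03; adjusted p = 0.668). Within M, DESeq2 called it at 2.59 (adjusted p = 0.0143) and limma-voom, another test, at 2.99 (adjusted p = 0.0458). In the M libraries alone edgeR did not call it.

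**Figure D2:**
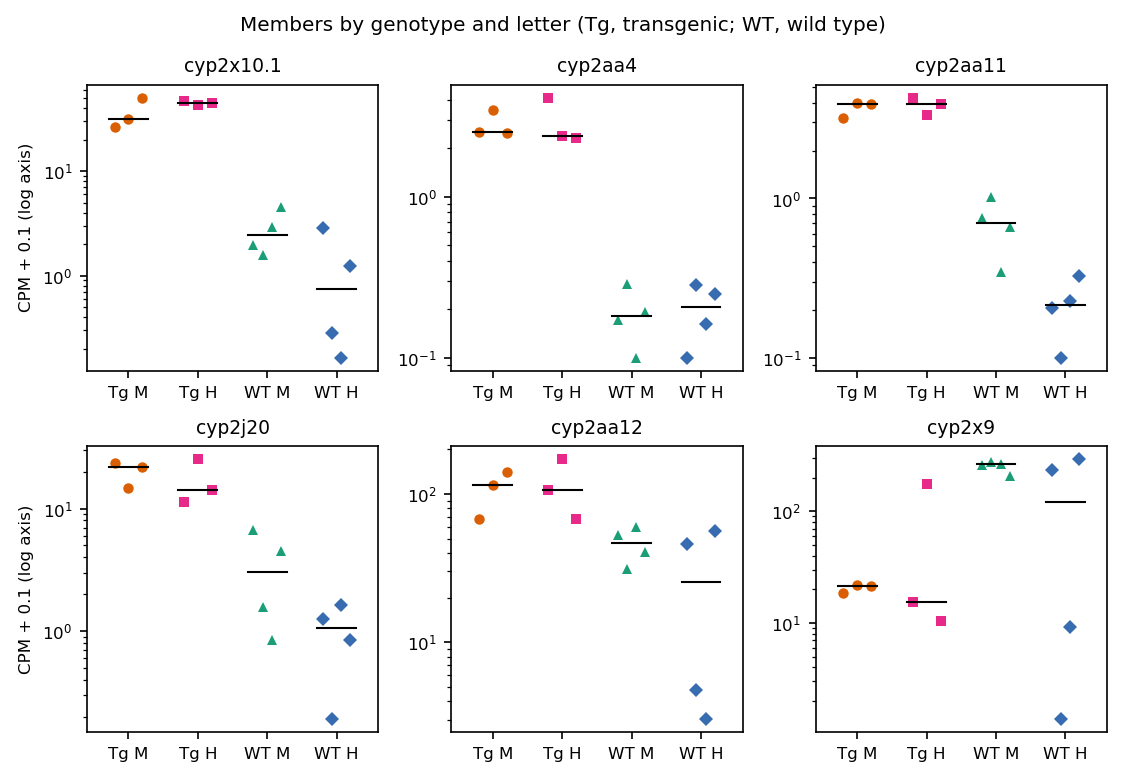
CPM with 0.1 added on a log axis for 6 members, with 1 point per library, black lines at group medians and transgenic (Tg) groups left of wild-type (WT) groups. In cyp2x10.1, cyp2aa4, cyp2aa11, cyp2j20 and cyp2aa12 every Tg point lies above every WT point, whereas in cyp2x9 6 WT points lie above all Tg points and 2 WT H points, at 1.27 and 9.19 CPM, below them.

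The fifth, cyp2k6 (ENSDARG00000098995), whose zebrafish enzyme activates the mould toxin aflatoxin B1, followed another pattern. It stood at 76.9, 165 and 95.2 CPM in transgenic H libraries but at 0.368, 2.33 and 0.423 CPM in transgenic M libraries, against 0.211, 0.817, 0.127 and 12.4 CPM in wild-type H and 0.289, 0, 0 and 0.0934 CPM in wild-type M libraries. The 4 highest libraries were the 4 in which vitellogenin genes took more than 1% of the counts, namely transgenic H 13, 14 and 16 and wild-type H 8. Liver markers took 3.42%, 0.260% and 3.07% of the counts in transgenic H 13, 14 and 16 and 0.141% in wild-type H 8. They took 0.0520 to 3.28% in wild-type M libraries, where cyp2k6 had at most 0.289 CPM. The part of vitellogenin-rich tissue in the level of cyp2k6 was not tested. The genotype log2 fold change was 4.12 (SE 1.0; adjusted p = 0.0348), with 5.03 within H (SE 1.29; adjusted p = 0.0832) and 3.22 within M (SE 1.59; adjusted p = 0.689). The genotype call was lost without any 1 of the 6 transgenic or 4 wild-type M libraries, where adjusted p reached 0.157. It held without each of the wild-type H libraries, at 5.73 without wild-type H 8 (adjusted p = 0.000899), and without wild-type H 6 and 7 together, at 3.66 (SE 0.92; adjusted p = 0.0351). Within H, leaving out wild-type H 8 gave 8.26 (adjusted p = 0.00508), and over all libraries DESeq2 and limma-voom called cyp2k6 within H at 5.06 (adjusted p = 0.00251) and 7.02 (adjusted p = 0.00278). H over M it had 5.83 (SE 1.09; adjusted p = 0.178).

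**Figure D3:**
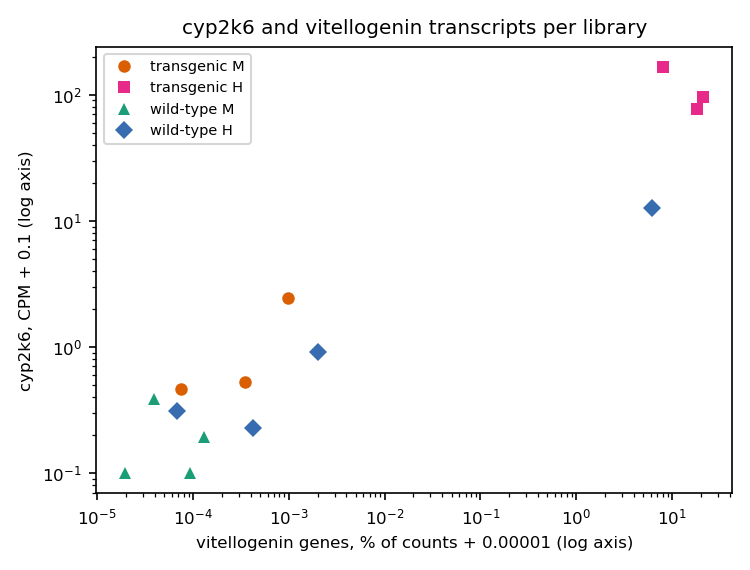
Level of cyp2k6 (CPM, log axis) against the share of counts in vitellogenin genes (percent, log axis), 1 point per library, with the small constants named on the axes added to both. The 3 transgenic H libraries and wild-type H 8, at 12.4 to 165 CPM, form the upper right, and the other 10 libraries lie at 2.33 CPM or less.

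Taken separately, the letters gave fewer calls. Within M, cyp2x10.1, cyp2aa4 and cyp2aa11 rose, 3 of 48 members or 6.25%, beside 0.51% of all genes called higher and 0.446% lower (0.956% in all). Leaving out any 1 of the transgenic or the wild-type M libraries left 1 member called within M, cyp2aa4. In the 7 M libraries alone, where cyp2k6 was not tested, 5 of 47 were called, those 3 higher and cyp2x8 and cyp2x9 lower, beside 4.32% of the 17177 genes tested there (2.2% higher and 2.12% lower). Within H, those 3 and cyp2j20 rose, 4 of 48 or 8.33%, beside 0.714% of all genes called higher and 0.435% lower (1.15% in all). When the 7 H libraries were fitted alone, edgeR called 0 of 48 members, beside 0.0628% of the 17523 genes tested there (0.0514% higher and 0.0114% lower), and 7 members had an unadjusted p under 0.05.

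Where the libraries of the genotypes did not overlap at all, the count was 5 members with every transgenic library higher and 0 with every one lower, beside 2.25% and 1.48% of all genes. The first 4 called genes were among them. The other was cyp2aa12 (ENSDARG00000102805), chosen for description after its values were seen. It stood at 68.0, 115 and 140 CPM in transgenic M and 105, 172 and 67.2 CPM in transgenic H, against 53.0, 31.0, 59.6 and 40.7 CPM in wild-type M and 46.2, 4.63, 2.92 and 55.8 CPM in wild-type H libraries. Its log2 fold change was 1.65 (SE 0.56; adjusted p = 0.141), and without wild-type H 6 and 7 it passed at 1.21 (SE 0.28; adjusted p = 0.0238).

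Over all 48 members the genotype log2 fold changes had a median of 0.43, and 32 were positive. Over all genes tested the median was -0.11 and 42.8% were positive. Without wild-type H 6 and 7 the members' median was 0.11, with 27 of 48 positive, and that of all genes 0.00. The members' median and that of all genes both lay nearer to 0 without these 2 libraries, and the cause was not tested. The values of cyp2p10 and cyp2x7, the members highest in wild-type H 6, moved the other way, to 1.87 and 0.40 without the 2 libraries, against -0.19 and -1.0 with them, and neither passed.

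**Figure D4:**
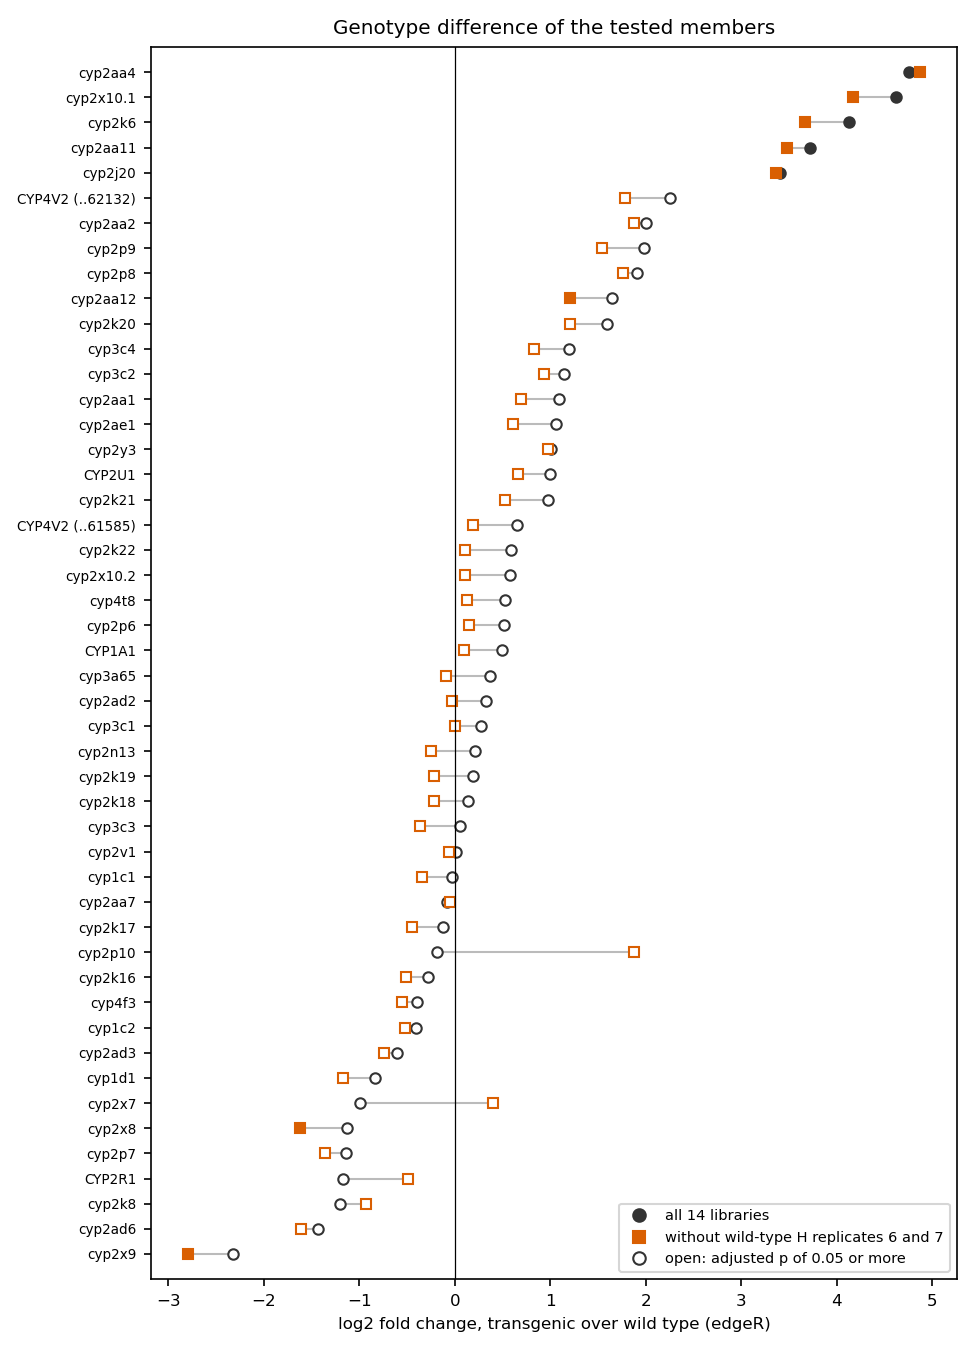
Genotype log2 fold change (transgenic over wild type) of the 48 tested members, in order of size, over all 14 libraries (circles) and without wild-type H 6 and 7 (squares), with filled marks where adjusted p was under 0.05. The 5 filled circles lie at 3.40 to 4.76, apart from the rest, and cyp2p10 and cyp2x7 move farthest between the fits.

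Without those 2 libraries, 8 of 48 members were called, 6 higher and 2 lower, beside 3.82% higher and 4.06% lower among all genes (7.88% in all). The higher ones were the 5 named above and cyp2aa12. The 2 that fell were cyp2x9 (ENSDARG00000070775) and cyp2x8 (ENSDARG00000043997), neighbours in the cyp2x array. The level of cyp2x9 was 18.3, 21.6 and 21.1 CPM in transgenic M and 15.4, 175 and 10.4 CPM in transgenic H, against 261, 278, 264 and 208 CPM in wild-type M and 234, 1.27, 9.19 and 294 CPM in wild-type H libraries. Apart from wild-type H 6 and 7, every wild-type library was above every transgenic one, and transgenic H 14 was well above the other transgenic libraries. The log2 fold change was -2.32 over all libraries (SE 0.97; adjusted p = 0.222) and -2.80 without the 2 libraries (SE 0.61; adjusted p = 0.0189). In the 7 M libraries alone it was -3.63 (SE 0.17; adjusted p = 6.99e-05).

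Its neighbour cyp2x8 had 60.6, 73.9 and 52.2 CPM in transgenic M and 30.7, 144 and 33.5 CPM in transgenic H, against 237, 124, 210 and 165 CPM in wild-type M and 253, 0.272, 0 and 195 CPM in wild-type H libraries. Wild-type H 6 and 7 held 3 and 0 of its counts, and transgenic H 14 was again the highest transgenic library. Its log2 fold change was -1.13 over all libraries (SE 1.14; adjusted p = 0.594), -1.62 without the 2 libraries (SE 0.38; adjusted p = 0.0260) and -1.56 in the M libraries alone (SE 0.26; adjusted p = 0.0174). Its direction was not the same in every test: limma-voom gave 1.13 over all 14 libraries (adjusted p = 0.683). In the same array cyp2x7 stood at 1.56 to 16.6 CPM in transgenic and 0.742 to 62.5 CPM in wild-type libraries and was not called.

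Within M, leaving out the same 2 libraries gave 7 calls, 6 higher and 1 lower, beside 3.86% of all genes (1.95% higher and 1.91% lower). The higher ones were cyp2x10.1, cyp2aa4, cyp2aa11, cyp2j20, cyp2k20 and cyp1c1, and cyp2x9 fell. Within H it gave 5 calls, cyp2x10.1, cyp2aa4, cyp2aa11 and cyp2j20 higher and cyp1c1 lower, beside 1.99% of all genes (0.989% higher and 1% lower). Wild-type H 5 and 8 were the only wild-type libraries in that comparison within H.

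Values varied along the arrays, with some neighbours alike and others unlike. Along the cyp2aa array, in the gene order of the GRCz12tu assembly, the genotype log2 fold changes were 1.65 for cyp2aa12, -0.08 for cyp2aa7, 3.72 for cyp2aa11, 4.76 for cyp2aa4, 1.09 for cyp2aa1 and 2.0 for cyp2aa2. In the row order of the count table, the 50 tested genes nearest to each of cyp2aa11 and cyp2aa4 held 7 called by genotype. Of all genes 4.21% were called, and the count was 1 for cyp2x10.1 and 0 each for cyp2k6 and cyp2j20. The counts of 7 may each include the other of these cyp2aa genes, and the row order was not checked against the assembly. Members not called by edgeR over all libraries had such counts too. These were 8 each for cyp2aa12, cyp2aa7, cyp2aa1, cyp2aa2 and cyp2ae1, and 6 each for cyp1c1 and cyp4f3. The cyp2aa genes and cyp2ae1 lie close together in the assembly. Their counts may thus hold the same called genes, cyp2aa11 and cyp2aa4 among them, and are not separate cases. Whether called genes cluster there was not tested. Along the cyp2k array the genotype log2 fold changes were 0.14 for cyp2k18, 1.6 for cyp2k20, 0.19 for cyp2k19, 0.97 for cyp2k21, -0.13 for cyp2k17, -0.28 for cyp2k16, -1.21 for cyp2k8 and 4.12 for cyp2k6. Highest of that array was cyp2k19, with 469, 338 and 287 CPM in transgenic M, 306, 726 and 249 CPM in transgenic H, 597, 375, 366 and 470 CPM in wild-type M and 664, 22.4, 84.3 and 289 CPM in wild-type H libraries. Its groups overlapped, with log2 fold changes of 0.19 over all libraries and -0.22 without wild-type H 6 and 7, neither of which passed. Counting may split reads between such similar paralogs, so the level of a single array member is less certain than that of an isolated gene.

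The relatives of CYP2J form 1 run of 11 consecutive genes, cyp2n13, cyp2ad6, cyp2ad2, cyp2v1, cyp2ad3, cyp2p6 to cyp2p10 and cyp2j20. Their genotype log2 fold changes ran from -1.44 for cyp2ad6 to 3.40 for cyp2j20, at the end of the run, and only cyp2j20 passed. The steadiest member was cyp2v1, with 31.8 to 52.5 CPM in transgenic and 26.4 to 55.8 CPM in wild-type libraries. The most abundant of them, cyp2p6, stood at 129, 255 and 113 CPM in transgenic M, 139, 230 and 88.9 CPM in transgenic H, 360, 54.0, 108 and 275 CPM in wild-type M and 108, 8.54, 32.4 and 101 CPM in wild-type H libraries. Its groups overlapped, and its log2 fold change was 0.51 (SE 0.55; adjusted p = 0.622), or 0.15 without wild-type H 6 and 7 (SE 0.46; adjusted p = 0.895).

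Several members were near 0 in a few libraries and higher in the rest, a pattern singled out after the values were seen. The adjacent cyp2p7, cyp2p8, cyp2p9 and cyp2p10 each had 0 to 2 counts in both wild-type M 2 and wild-type H 5. In the other 12 libraries cyp2p9 had 0.888 to 188 CPM (median 115) and cyp2p7 had 4.58 to 76.3 CPM (median 15.4). There cyp2p8 had 0.507 to 29.8 CPM (median 8.52) and cyp2p10 had 0.824 to 37.2 CPM (median 6.56). Some of these values were thus low too. Their neighbour cyp2p6 had 54.0 and 108 CPM in wild-type M 2 and wild-type H 5. No library outside those 2 held as few of their counts. Enterocyte markers took 1.87% of the counts in wild-type M 2 and 2.35% in wild-type H 5, and the cause was not tested.

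The same was seen for single genes. The level of cyp2x10.2 was 0 in transgenic M 11, transgenic H 13 and transgenic H 16 and 2 counts in wild-type H 6, and 0.380 to 24.2 CPM in the other 10 libraries. In the same 3 transgenic libraries its paralog cyp2x10.1 stood at 50.6, 46.7 and 44.3 CPM. The family 3 gene cyp3c2 had 0 to 2 counts in wild-type M 1, wild-type M 3 and wild-type H 6 and 8.70 to 26.0 CPM in the other 11 libraries. Within a library, 3 counts correspond to 0.190 to 0.317 CPM, the upper limit that a count of 0 allows.

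**Figure D5:**
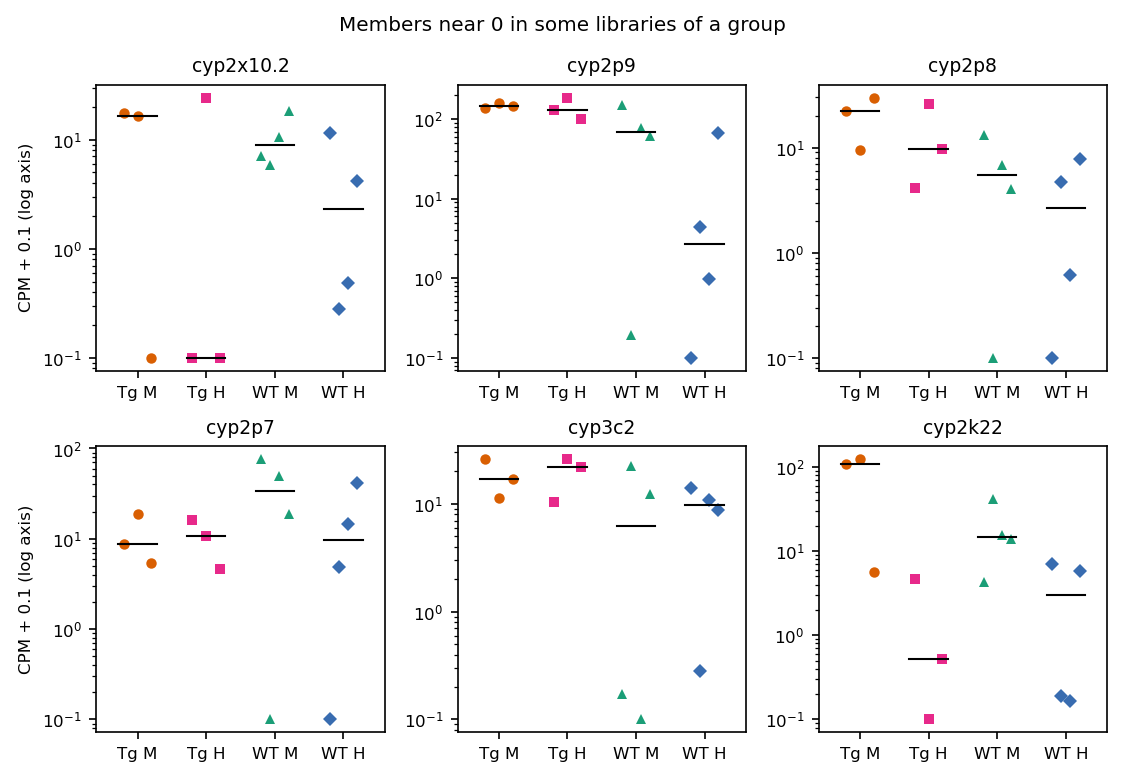
CPM with 0.1 added on a log axis for 6 members, with 1 point per library and black lines at group medians. In cyp2p7, cyp2p8 and cyp2p9 1 point each of WT M and WT H lies at the bottom, in cyp2x10.2 3 transgenic (Tg) points and 1 WT H point, in cyp3c2 2 WT M points and 1 WT H point, and in cyp2k22 points of 2 groups.

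The remaining single-gene subfamilies of family 2 did not pass in edgeR's fit of all 14 libraries. They include CYP2U1, a fatty acid hydroxylase in humans, with 11.2 to 26.9 CPM in transgenic libraries (median 20.6) and 1.54 to 20.3 CPM in wild-type libraries (median 7.53). CYP2R1, in mammals the 25-hydroxylase of vitamin D, stood at 0.625 to 4.24 CPM in transgenic libraries and 0.0928 to 35.7 CPM in wild-type libraries, where the highest value was that of wild-type M 3. For cyp2y3 the level was 8.79 to 124 CPM in transgenic and 0.649 to 68.8 CPM in wild-type libraries, and for cyp2ae1 it was 18.2 to 32.5 CPM and 0.363 to 19.6 CPM.

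Of family 4, CYP4V2 (ENSDARG00000062132), whose human counterpart hydroxylates fatty acids at the end carbon, had the largest difference. It stood at 137 to 349 CPM in transgenic libraries (median 258) and 2.41 to 148 CPM in wild-type libraries (median 24.8), and the groups overlapped only through wild-type H 5. The log2 fold change was 2.25 (SE 0.85; adjusted p = 0.182), and 1.79 without wild-type H 6 and 7 (SE 0.69; adjusted p = 0.155). The second CYP4V2 gene (ENSDARG00000061585), cyp4t8 and cyp4f3, the last a relative of the human leukotriene B4 hydroxylase, had 0.65, 0.52 and -0.40, and 0.19, 0.12 and -0.55 without wild-type H 6 and 7. As a share of the summed member FPKM, family 4 took 6.61 to 8.68% in transgenic libraries and 1.97 to 5.21% in wild-type libraries, and the ranges did not overlap. CYP4V2 (ENSDARG00000062132) weighs most in that share, with a mean of 48.7 FPKM. The means were 24.7 for cyp4t8, 16.2 for the second CYP4V2 gene and 4.87 for cyp4f3. No family 4 gene passed by genotype in edgeR's fit of all 14 libraries, and the share itself was not tested. The shares of families 1, 2 and 3 overlapped between genotypes. They were 2.19 to 6.46% in transgenic and 2.49 to 5.67% in wild-type libraries for family 1. For family 2 they were 30.9 to 43.0% and 33.4 to 65.9%, and for family 3 43.1 to 57.2% and 24.3 to 61.7%.

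No member passed between the letters H and M in edgeR's quasi-likelihood test. H against M averaged over genotypes, H against M within either genotype, and the difference of the genotype effect between the letters gave 0 of 48 calls each, beside 0% of all genes, except 0.00537% for H against M within wild type. Unadjusted p was under 0.05 for 4 members in H against M, for 2 of them within transgenic and 4 within wild type, and for 2 in the difference of the genotype effect. DESeq2 called 2 members in H against M, cyp2k6 higher and cyp2k22 lower, beside 1.76% of genes (1.72% higher and 0.0459% lower). Within transgenic it called cyp2k6 higher, beside 0.229% (0.209% higher and 0.0199% lower), and within wild type cyp2k6 higher and cyp2aa11 lower, beside 7.95% (7.08% higher and 0.868% lower). In the difference of the genotype effect it called 0 members, beside 0.0867% (0.0204% higher and 0.0663% lower). The largest differences, H over M, were 5.83 for cyp2k6 and -4.06 for cyp2k22. The level of cyp2k22 was 4.57, 0 and 0.424 CPM in transgenic H but 107, 124 and 5.50 CPM in transgenic M libraries, and 6.87, 0.0908, 0.0634 and 5.70 CPM in wild-type H but 4.20, 41.4, 15.3 and 13.8 CPM in wild-type M libraries. The transgenic H and M libraries of cyp2k22 did not overlap, and its adjusted p was 0.293.

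None of the partners of these enzymes passed by genotype. Of 8 redox partners tested, among them the reductase POR, none passed, with a median log2 fold change of 0.01 by genotype. POR (ENSDARG00000059035) averaged 604 ± 185 CPM in transgenic libraries (SD, n = 6) and 440 ± 190 CPM in wild-type libraries (SD, n = 8), at 0.48 (SE 0.37; adjusted p = 0.480), and cytochrome b5, CYB5A, likewise had 0.48 (adjusted p = 0.520). Without wild-type H 6 and 7 they had 0.15 and 0.12. Of 14 genes of heme synthesis and breakdown none passed (median -0.22), with HMOX2, a heme oxygenase, at -0.61 (adjusted p = 0.293) and FECH, which inserts iron into heme, at -0.68 (adjusted p = 0.336), or -0.57 and -0.16 without wild-type H 6 and 7.

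The aryl hydrocarbon receptor list holds receptors and other genes of their pathway. Beside 2.19% of all genes called higher, 1 of its 8 tested genes rose and none fell (median 0.20). It was ahr1a, an aryl hydrocarbon receptor gene of zebrafish, with 47.3, 41.1 and 2.28 CPM in transgenic M and 28.8, 1.56 and 1.19 CPM in transgenic H, against 1.16, 2.04, 1.57 and 1.40 CPM in wild-type M and 1.06, 0, 0.571 and 0.675 CPM in wild-type H libraries. Only transgenic M 9, transgenic M 10 and transgenic H 13 stood far above the wild-type libraries, and the groups overlapped. The log2 fold change was 4.23 (SE 0.86; adjusted p = 0.0141), and 3.97 without wild-type H 6 and 7 (adjusted p = 0.0396). None of 20 xenobiotic and lipid nuclear receptors passed, and 19 had a positive log2 fold change (median 0.47), against 15 without wild-type H 6 and 7 (median 0.24). NR1H3, a sterol receptor, had 0.63 (SE 0.21; adjusted p = 0.137) and PPARA, a fatty acid receptor, 0.82 (SE 0.31; adjusted p = 0.188).

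Downstream, 1 of 35 conjugation and epoxide hydrolysis genes rose and none fell (median 0.23), beside 2.19% of all genes called higher. MGST2, a glutathione transferase of membranes, averaged 46.6 ± 9.49 CPM in transgenic libraries (SD, n = 6) and 15.2 ± 6.05 CPM in wild-type libraries (SD, n = 8), with no overlap. Its log2 fold change was 1.65 (SE 0.29; adjusted p = 0.00553), and 1.37 without wild-type H 6 and 7 (adjusted p = 0.000800). In that last fit 1 of 37 tested genes of the list rose and 1 fell, beside 3.82% of all genes called higher and 4.06% lower. Of 14 efflux transporters none passed (median 0.31), with abcc2, which exports conjugates, at 1.01 (SE 0.47; adjusted p = 0.261), or 0.64 without wild-type H 6 and 7 (adjusted p = 0.0577). Within M, abcc2 had 1.09 (adjusted p = 0.863), and it passed at 1.08 without wild-type H 6 and 7 (adjusted p = 0.0282). Another efflux transporter, abcb5, had -3.40 (SE 1.84; adjusted p = 0.325), which rests on wild-type H 6, at 55.9 CPM, and wild-type H 7, at 4.95 CPM, since each of the other 12 libraries had at most 1.42 CPM. Without those 2 libraries abcb5 was too low to be tested.

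Outside families 1 to 4, 25 genes of other P450 families were tested. Of these, 1 rose and 2 fell (median -0.63), beside 2.19% of all genes called higher and 2.02% lower. CYP7B1, an oxysterol hydroxylase, averaged 15.3 ± 5.73 CPM in transgenic and 3.61 ± 3.65 CPM in wild-type libraries (log2 fold change 2.16, SE 0.49; adjusted p = 0.0262). The gene cyp46a1.4, a relative of the human cholesterol 24-hydroxylase, fell to 6.40 ± 4.28 CPM in transgenic libraries, against 43.0 ± 6.44 CPM in wild-type libraries (log2 fold change -2.76, SE 0.34; adjusted p = 0.000537). CYP8B1 (ENSDARG00000097556), a relative of a bile acid hydroxylase, fell at 0.360 ± 0.279 CPM in transgenic and 1.64 ± 0.482 CPM in wild-type libraries (log2 fold change -2.23, SE 0.53; adjusted p = 0.0309). Its transgenic values of 0 to 0.761 CPM rest on few counts, since 3 counts correspond to 0.190 to 0.317 CPM within a library. The calls of CYP7B1 and CYP8B1 held in 6 and 7 of the 14 fits that left out 1 library, and that of cyp46a1.4 in all 14. All 3 passed without wild-type H 6 and 7, at 1.78 for CYP7B1, -2.86 for cyp46a1.4 and -2.41 for CYP8B1. In that fit 1 of the 25 genes rose and 3 fell, beside 3.82% of all genes called higher and 4.06% lower.

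The genes whose profile over the 14 libraries was most like that of cyp2x10.1, by Pearson correlation of log2 CPM, were MFAP4 (ENSDARG00000111491; r = 0.97), VPS13C (0.97), si:dkey-269o24.1 (0.96), si:dkey-15f23.2 (0.96) and STAU2 (0.96). The libraries fall into 2 sets by genotype, so this is a description with no test.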

How the data were processed

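Trizol extraction, poly-A selection and a stranded kit are given per the labels' protocols. The submitters' processing notes name STAR 2.7.3a, featureCounts 1.6.3, FastQC and edgeR, and list GRCm38.p6, mm10 and GRCz11 as builds with no role. No source used here gives the strand setting. The authors deposited whole-number read counts per gene, without normalization, and FPKM, which the authors' files hold as those counts over gene length and library total. Identifiers are zebrafish Ensembl ones. Symbols came from a gene-name reference keyed by these identifiers. Gene order along the arrays came from a RefSeq table of GRCz12tu, whose build differs, so no coordinates are given. Calls among the 50 nearest tested genes were counted in the row order of the count table. Of 189 listed pathway and marker names, 174 were matched.

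Genes kept by filterByExpr over the 4 groups (18619) were scaled by TMM and fitted with 1 mean per group in edgeR 4.0.16 under R 4.3.3 (glmQLFit, glmQLFTest). From this fit 7 comparisons were drawn, with Benjamini-Hochberg adjustment over all tested genes at 0.05. A positive log2 fold change is higher in transgenic fish, or in H. SE is the absolute log2 fold change over the square root of F. Alternatives were DESeq2 1.42.0, limma-voom (limma 3.58.1), DESeq2's size factors, no filter, each letter alone, wild-type H 6 and 7 left out together and each library left out in turn. Library totals of 9847910 to 14091791 counts set the precision, and limits at 0 cover counting error only.

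The members and lists were chosen with earlier results of these data known. Values in every library are given for members that passed in any comparison, for the 8 with the highest mean FPKM and for family 1, together 16. Of the pathway lists, at most 4 genes that passed per comparison are named, or the 2 with the smallest p. Other members named were chosen after their values were seen.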

Additional observations from a re-analysis of the deposited data

Results flagged for a closer look

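Of 32 groups of 4 libraries checked for a single library far from the rest, 1 was flagged, and chance flags about 5% of groups. It was cyp2k6 in wild-type H libraries, where wild-type H 8 stood at 12.4 CPM and the other 3 at 0.127 to 0.817 CPM. On the log2(CPM + 2) scale the gap to the nearest library made 0.853 of the group's whole range, above Dixon's critical value for 4 samples. Wild-type H 8 was also the wild-type library with the most vitellogenin counts, at 6.18%.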

How the results depend on the processing

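Averaged over the letters, 5 members were called by genotype, and 8 with DESeq2 and 8 without wild-type H 6 and 7; leaving out 1 library gave 4 to 6. Within M, 3 were called, with 7 without wild-type H 6 and 7, 5 with the M libraries alone, and 1 to 4 with 1 library left out. Within H, 4 were called, 0 with the H libraries alone and 3 to 5 with 1 library left out. DESeq2 called 2 members in H against M, 2 within wild type and 1 within transgenic, where edgeR called 0; with 1 library left out these ran 0 to 1, 0 to 2 and 0 to 1. The calls of cyp2x10.1, cyp2aa4, cyp2aa11 and cyp2j20 by genotype held in all 14 fits that left out 1 library.

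Several genotype log2 fold changes that did not pass changed sign. For cyp3a65 (0.37) it was -0.0910 without wild-type H 6 and 7, and -0.0545 (without transgenic H 14) to 0.77 with 1 library left out. For cyp3c3 (0.05) it was -0.37 without both, and -0.14 to 0.61 with 1 library left out. For cyp2k19 (0.19) it was -0.22 without both, and -0.11 to 0.68 with 1 library left out. With limma-voom, cyp2x8 (-1.13) had 1.13 and cyp1c1 (-0.03) had 0.37. With 1 library left out cyp1c1 ran from -0.23 to 0.14, and cyp1c2 (-0.41) from -0.98 to 0.18, the last without wild-type M 3. The cause was not tested. No paired analysis was possible because the groups share no replicate numbers. Paralogs with few counts, such as cyp2aa4, limit what this depth can show.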
